A study of Mus musculus with 20 samples.

Results

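The Bcl2 family decides whether a T cell survives or dies by the mitochondrial route of apoptosis, and 25 of the 22081 distinct regions listed for Bcl11b or Foxp3 lay at 6 of 7 of its genes. The genes were Bcl2, Bcl2l1, Mcl1, Bcl2l11, Bax, Bak1 and Bbc3. A region was given to a gene when no protein-coding gene lay nearer to the centre of the region, with distance 0 inside a gene and a limit of 100 kb. Bcl2 had 9 regions, Bcl2l1 and Mcl1 had 5 each, and Bax, Bak1 and Bbc3 had 2 each. Of all 21883 protein-coding genes, 51% had a region, 24.4% had 2 or more and 3.44% had 5 or more. Bcl2l11 had none by this rule, although 1 region at its start site was given to the overlapping gene Acoxl.

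Foxp3 is the forkhead factor that defines regulatory T (Treg) cells, and Bcl11b a zinc-finger factor needed for T cell identity. Their binding in mouse CD4+ T cells was mapped by ChIP-seq, the sequencing of DNA that is pulled down with an antibody to the factor. All mice were C57BL/6, and cells were sorted from spleen and draining lymph nodes and fixed. Wild-type (WT) Treg cells were CD4+YFP+ cells of Foxp3-IRES-YFP-Cre mice, with 3 Bcl11b and 2 Foxp3 libraries. Cells labelled Tn had the same genotype and the same sort label, with 3 Bcl11b libraries, so the label Tn is kept as given. Bcl11b-KO Treg cells were CD4+YFP+ cells of mice that carry Bcl11b f/f with Foxp3-IRES-YFP-Cre, with 2 Foxp3 libraries. In these mice the Cre recombinase is driven by Foxp3, so Bcl11b is deleted in cells that express Foxp3, and the WT mice carry the same Cre. KIKO cells were CD4+GFP+ cells of Foxp3-GFPKO mice, which are Treg cells devoid of Foxp3, with 2 Bcl11b libraries. The other 8 of the 20 samples were input DNA. The labels give no ages and do not say that libraries came from separate mice.

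Mitochondrial apoptosis turns on a balance inside this family. Bcl2, Bcl2l1 (whose main product is Bcl-xL) and Mcl1 encode guardians that hold the effectors in check. Bax and Bak1 encode those effectors, which make pores in the outer mitochondrial membrane. Bcl2l11 (Bim) and Bbc3 (Puma) encode sensors that bind the guardians and release the effectors, and both are known targets of forkhead factors of the FoxO group. Mcl1 is known to be needed for the survival of Treg cells, and Bim for the removal of T cells when cytokine is withdrawn.

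The data are 12 lists of positions in mm10, 3 for each of 4 comparisons. Each comparison sets 2 sets of regions against each other. By their names, the lists hold regions common to both sets or specific to 1 of them. The rule for these classes was not given, so common may not mean a separately called region in both sets. The lists hold no signal, score or value per replicate, so the read depth behind a region is unknown and no difference below has a test between replicates. Expression was not measured in these files, so neither the cell labels nor the deletions could be checked with them.

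At 6 of the 7 genes a region covered part of a RefSeq promoter window, which spans 250 bases before to 50 after a start site. Such a region was found on 7 of their 12 windows, beside 29.2% of the 21262 windows of protein-coding genes. The Bbc3 windows of the starts at 16310261 and 16310431 overlap and share the same region. By gene, 6 of 7 had a window with a region, beside 31.8% of 17491 protein-coding genes with a window. Below are the bases of these windows that lie inside a region and before the start site, 5′ to 3′ on the strand of the gene, from RefSeq on GRCm38.p6, which shares its coordinates with mm10. They are shown because they are the stretches of these genes, next to a start site, that the authors listed as bound. Capitals mark matches to the motifs named after them. For Bbc3 the start at 16310261 is used, and for Bcl2l1 the start at 152830717.
Mcl1, chr3:95658471-95658720, plus strand: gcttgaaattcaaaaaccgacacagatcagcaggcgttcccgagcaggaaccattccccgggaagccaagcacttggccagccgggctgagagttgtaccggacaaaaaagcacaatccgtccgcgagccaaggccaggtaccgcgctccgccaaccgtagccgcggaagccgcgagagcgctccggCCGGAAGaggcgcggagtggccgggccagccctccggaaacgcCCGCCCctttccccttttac
Bcl2l11, chr2:128125788-128126015, plus strand: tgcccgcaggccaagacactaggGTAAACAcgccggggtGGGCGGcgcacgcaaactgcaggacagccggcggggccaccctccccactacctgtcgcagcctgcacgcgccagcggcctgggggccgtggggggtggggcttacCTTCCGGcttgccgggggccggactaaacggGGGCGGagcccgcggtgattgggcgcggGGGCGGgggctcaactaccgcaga
Bbc3, chr7:16310011-16310260, plus strand: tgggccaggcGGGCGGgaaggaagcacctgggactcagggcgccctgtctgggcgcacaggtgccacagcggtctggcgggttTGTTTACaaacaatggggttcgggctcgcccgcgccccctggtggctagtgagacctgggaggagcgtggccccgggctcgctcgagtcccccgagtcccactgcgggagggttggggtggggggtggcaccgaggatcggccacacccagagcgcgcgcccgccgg
Bax, chr7:45466899-45466999, minus strand: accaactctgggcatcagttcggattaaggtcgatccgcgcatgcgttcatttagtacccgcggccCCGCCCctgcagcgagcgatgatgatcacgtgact
Bak1, chr17:27028628-27028735, minus strand: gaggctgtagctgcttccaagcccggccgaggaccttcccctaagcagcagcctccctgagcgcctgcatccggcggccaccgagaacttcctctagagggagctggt
Bcl2l1, chr2:152830718-152830813, minus strand: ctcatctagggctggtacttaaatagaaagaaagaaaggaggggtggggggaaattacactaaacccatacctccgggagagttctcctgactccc

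Both strands of every 300-base window were searched for 7 motifs: forkhead TGTTTAC, Runx TGTGGT, ETS CCGGAAG, AP-1 TGACTCA, CRE TGACGTCA, STAT TTCNNNGAA and Sp/KLF GGGCGG. None of these letters contains another of the 7 motifs. The forkhead letters stood in 2 of the 12 windows, those of Bcl2l11 and Bbc3 shown above, beside 3.65% of all 32851 windows and 3.02% of the 6963 windows that share a base with a region. In Bbc3 they started 167 bases before the start site, and in Bcl2l11 227 bases before it on the opposite strand. Both matches lie inside the region listed there. The ETS letters stood in 3 windows, beside 8.86% of all and 25.5% of those with a region. They were 63 bases before the start of Mcl1 and 105 before that of Bcl2l11, both inside the region, and 35 bases after the first start of Bcl2l1, outside any region. Sp/KLF letters stood in 8 of the 12 windows, beside 35.7% of all and 67.4% of those with a region. Runx letters stood in the Bak1 window alone of the 12, 221 bases before the start and outside the region, beside 16.8% of all windows and 13.0% of those with a region. AP-1, CRE and STAT letters were in none of the 12, beside 5.20%, 1.79% and 8.30% of all and 3.39%, 4.55% and 6.81% of those with a region. A match describes the letters of a window and does not place a factor there.

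**Figure D1:**
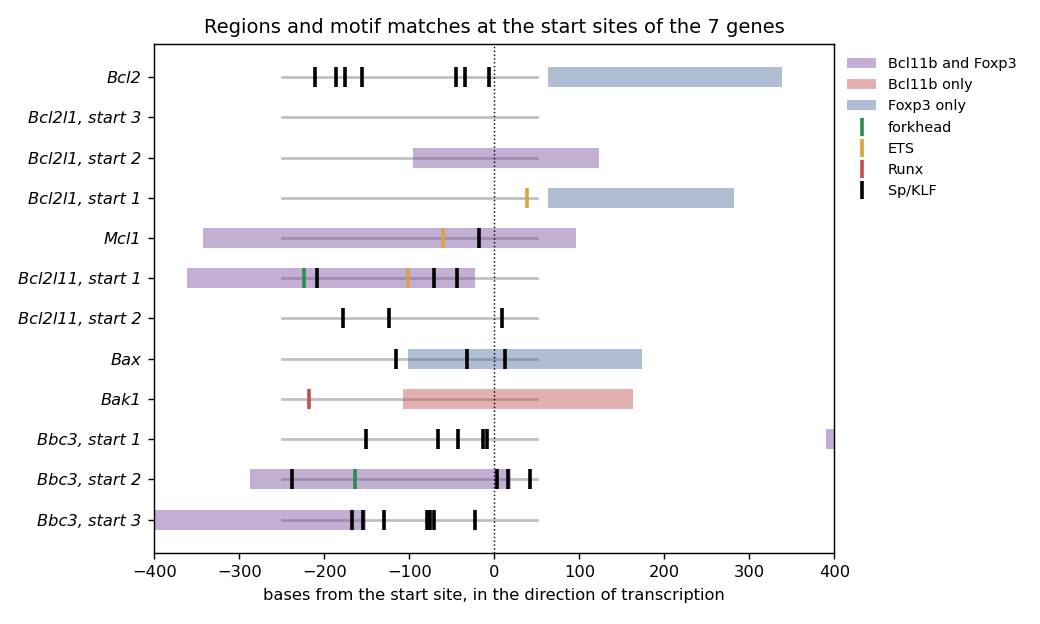
Regions and motif matches around the 12 start sites of the 7 genes. The x axis gives bases from the start site in the direction of transcription, grey lines are the promoter windows from 250 bases before to 50 after the start, bars are listed regions coloured by factor and clipped at the edges of the plot, and ticks are motif matches. The regions of Mcl1, Bcl2l11 and Bbc3 start 2 cover most of the window before the start site and were listed for both factors.

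Among the guardians, Bcl2 carried the most regions, and none of its 9 was listed for both factors, beside 24.8% of all regions. The comparison of the 2 factors listed 2 of the 9 as Bcl11b-specific, 3 as Foxp3-specific and 0 as common. It did not list the rest. The gene spans chr1:106538176-106714290 on the minus strand, 176 kb, and all 9 regions lay inside it. Only 72 of 21883 protein-coding genes (0.329%) had as many regions or more. Per length Bcl2 was the least dense of the 6 genes, with 0.511 regions per 10 kb of gene, beside 2.27 at Bak1. Bcl11b alone was listed at 4 of the regions. Those 19.4 and 9.87 kb after the start site, chr1:106694746-106694943 and chr1:106704327-106704524, were Treg-specific against Tn, WT-specific against KIKO and Bcl11b-specific against Foxp3. Those 176 and 1.76 kb after the start, chr1:106538619-106538844 and chr1:106712418-106712643, were common to Treg and Tn cells and listed in no other comparison. Both are 226 bp wide, the commonest width among Tn-specific regions.

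Foxp3 alone was listed at the other 5 Bcl2 regions. The region nearest the start, chr1:106713952-106714227, covers bases 63 to 338 after it, and with chr1:106707340-106707559, 6.84 kb after the start, it was WT-specific against Bcl11b-KO Treg cells. The region 153 kb after the start, chr1:106561047-106561361, was common to WT and Bcl11b-KO cells. A region 11.2 kb after the start, chr1:106702991-106703266, was common too, yet the comparison of the 2 factors did not list it. The region at 148 kb, chr1:106566099-106566374, was KO-specific and the only one of that class at the 7 genes. The 9 regions of Bcl2 thus lay towards the ends of the gene, with none between 19.4 and 148 kb after the start.

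**Figure D2:**
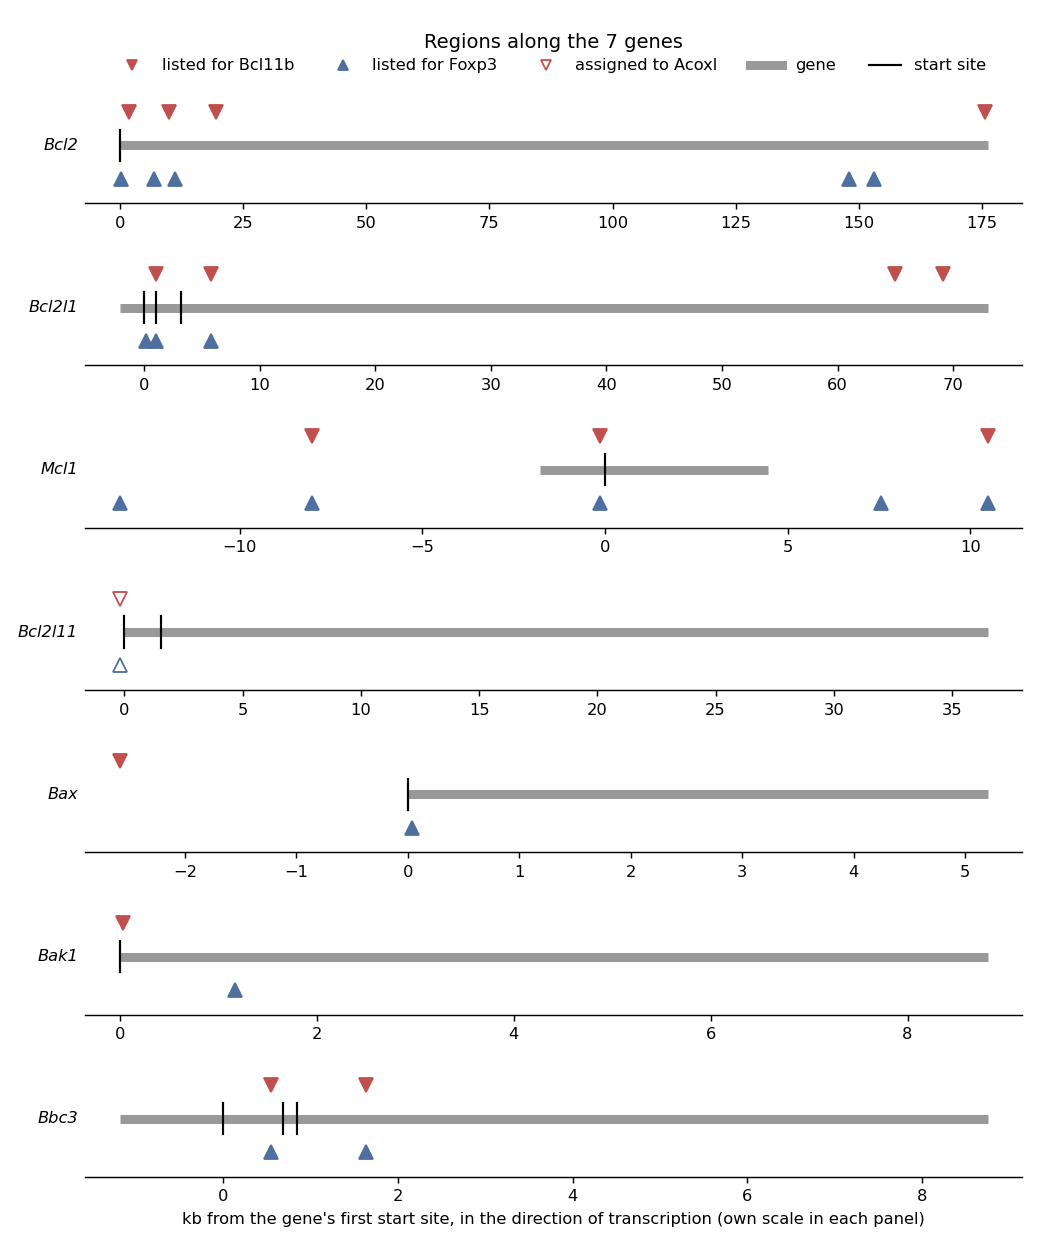
Regions along the 7 genes. The x axis gives kb from the first start site of each gene in the direction of transcription, on its own scale in each panel; grey bars are genes, black lines start sites, red triangles regions listed for Bcl11b and blue ones regions listed for Foxp3, with open triangles for the region given to Acoxl. At Bcl2, Bax and Bak1 no position has both a red and a blue triangle, while both Bbc3 regions and 3 of 5 Mcl1 regions have both. Over all regions, 24.8% were listed for both factors.

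Bcl2l1 had 5 regions, and the 3 listed for Foxp3 were all WT-specific against Bcl11b-KO Treg cells, beside 27.2% of all regions of that comparison. The gene spans chr2:152758732-152833803 on the minus strand, and RefSeq gives it 3 start sites. At the second start site, chr2:152830594-152830813 was listed in all 4 comparisons, as common to Treg, Tn and KIKO cells for Bcl11b, common to Bcl11b and Foxp3, and WT-specific for Foxp3. A region 2.54 kb after the third start site, chr2:152825799-152826100, was also listed in all 4, but as Treg-specific against Tn and WT-specific against KIKO. The Foxp3-specific region chr2:152831446-152831665 covers bases 63 to 282 after the first start site. Near the far end of the gene, chr2:152766641-152766838 was common to Treg, Tn and KIKO cells for Bcl11b and Bcl11b-specific against Foxp3. The last region, chr2:152762514-152762739, was common to Treg and Tn cells only, is 226 bp wide and lies inside Cox4i2 as well, so it cannot be given to Bcl2l1 alone.

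At Mcl1, Foxp3 was listed at all 5 regions, 3 of them with Bcl11b. Of all 22081 regions, 16228 were listed for WT Foxp3, and 24.8% were listed for both factors. The gene is short, 6.24 kb at chr3:95656944-95663179, and 4 of the regions lay outside it. The region over its start site, chr3:95658378-95658817, is the widest of the 25 at 440 bp and reaches from 343 bases before the start to 96 after. It was listed in all 4 comparisons, as common to Treg and Tn cells, WT-specific against KIKO, common to Bcl11b and Foxp3, and WT-specific for Foxp3 against Bcl11b-KO. Further out, chr3:95650578-95650797 (8.03 kb before the start) and chr3:95669062-95669337 (10.5 kb after) were common to both factors and to WT and Bcl11b-KO cells. Neither was listed for Treg Bcl11b against Tn or KIKO. Of the Foxp3-specific regions, the one 13.3 kb before the start, chr3:95645304-95645579, was common to WT and Bcl11b-KO, and that 7.55 kb after it, chr3:95666164-95666383, was WT-specific.

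Both effector genes had 1 region of each factor, at separate positions, where 24.8% of all regions were listed for both factors. At Bax, the Foxp3-specific region chr7:45466724-45466999 covers the start site, from 101 bases before to 174 after, and was common to WT and Bcl11b-KO cells. The Bcl11b region of Bax, chr7:45469382-45469579, lies 2.58 kb before the start, outside the gene. It was Treg-specific against Tn, WT-specific against KIKO and Bcl11b-specific against Foxp3, the same classes as those of 2 Bcl2 regions. At Bak1 it was Bcl11b that was listed over the start site, at chr17:27028464-27028735, from 108 bases before to 163 after. That region was common to Treg and Tn cells and not listed in the KIKO and Foxp3 comparisons. The Foxp3 region of Bak1, chr17:27027323-27027598, lies 1.17 kb after the start and was common to WT and Bcl11b-KO cells, but not listed against Bcl11b. Both Bak1 regions also lie inside Ggnbp1, which overlaps Bak1.

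Both regions of the sensor gene Bbc3 were listed for both factors and were common to WT and Bcl11b-KO Treg cells. Over all regions, 24.8% were listed for both factors, and 59.7% of those in the comparison of WT with Bcl11b-KO were common. The region chr7:16309973-16310280 reaches from 288 bases before the second of 3 start sites to 19 after, and chr7:16311041-16311402 lies 790 bases after the third. At 308 and 362 bp both are wider than the commonest width of any set, of which the largest is 276 bp. Only the comparison with Foxp3 lists Bcl11b there, since neither region was in the Tn or KIKO lists.

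For the other sensor gene, Bcl2l11, the nearest region fell just outside the rule. The gene spans chr2:128126038-128162547, and chr2:128125676-128126015 ends 23 bases before its first start site and covers 228 bases of that promoter window. Its centre is 193 bp from Bcl2l11 but inside Acoxl, whose end overlaps the start of Bcl2l11, so the rule gives it to Acoxl. It was common to Bcl11b and Foxp3 in WT Treg cells, and yet KO-specific where Foxp3 in WT cells was set against Bcl11b-KO cells. The lists therefore conflict on whether Foxp3 was listed there in WT cells. A further region in Acoxl, chr2:128117721-128118007, lies 8.17 kb before Bcl2l11 and was Foxp3-specific and common to WT and Bcl11b-KO. By contrast, the farthest region that was given to one of the 7 genes lies 11.5 kb outside it, at Mcl1, so the limit of 100 kb set no count.

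**Figure D3:**
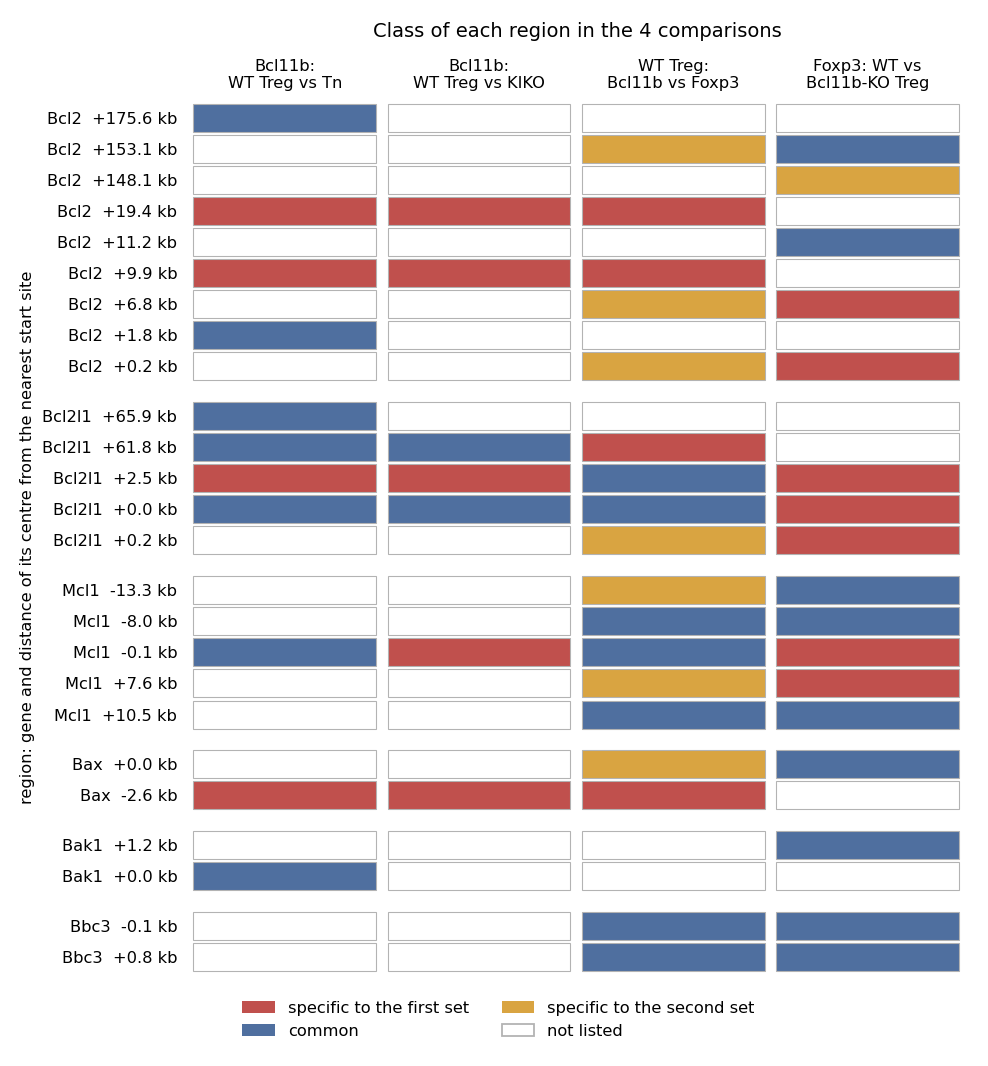
Class of each of the 25 regions in the 4 comparisons. Each row is a region, named by its gene and the distance of its centre from the nearest start site in kb, each column is a comparison, and the colour gives the class; white means not listed. The last column, Foxp3 in WT against Bcl11b-KO Treg cells, holds 7 WT-specific cells, all at Bcl2, Bcl2l1 and Mcl1. The 4 listed cells of Bax, Bak1 and Bbc3 in that column are common. The KO-specific region at the start site of Bcl2l11 was given to Acoxl and is not drawn. Nor is a WT-specific region 4.25 kb from Bax, which was given to Dhdh.

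Set out by comparison, the share of every class at the 7 genes lay within counting error of its share among all regions. Intervals are Wilson 95% intervals, which cover counting error only and treat regions of 1 gene as independent, which they are not. In the comparison of Bcl11b in Treg and Tn cells, 11 of the 25 regions were listed. Of these, 4 were Treg-specific (36.4%, 15.2 to 64.6), beside 28.0% of all regions, and they lay at Bcl2 (2), Bcl2l1 and Bax. A further 7 were common (63.6%, 35.4 to 84.8), beside 62.0%. None was Tn-specific, which allows up to 25.9%, beside 10% of all.

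Against KIKO cells 7 regions were listed. WT-specific were 5 (71.4%, 35.9 to 91.8), beside 61.6% of all, namely the 4 regions that were Treg-specific against Tn and the one at the start site of Mcl1. The 2 common regions (28.6%, 8.22 to 64.1), beside 37.2% of all, were both at Bcl2l1. None was KIKO-specific, which allows up to 35.4%, beside 1.17% of all.

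Between the 2 factors in WT Treg cells 18 regions were listed. Bcl11b-specific were 4 (22.2%, 9.0 to 45.2), beside 14.9% of all. The 7 common regions (38.9%, 20.3 to 61.4), beside 28.3%, were 3 at Mcl1 and 2 each at Bcl2l1 and Bbc3. Foxp3-specific were another 7 (38.9%, 20.3 to 61.4), beside 56.8%, with 3 at Bcl2, 2 at Mcl1 and 1 each at Bcl2l1 and Bax.

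Between WT and Bcl11b-KO Treg cells, 17 Foxp3 regions were listed. WT-specific were 7 (41.2%, 21.6 to 64.0), beside 27.2% of all, with 3 at Bcl2l1 and 2 each at Bcl2 and Mcl1. Common were 9 (52.9%, 31.0 to 73.8), beside 59.7%, and 1 was KO-specific (5.88%, 1.05 to 27.0), beside 13.1%. At the guardian genes 7 were WT-specific, 5 common and 1 KO-specific, and at the effector and sensor genes all 4 were common. This split was seen in the lists, has no test and depends on the rule. With the region at the start site of the sensor gene Bcl2l11, which 3 alternatives add, KO-specific regions number 2 and stand at both kinds of gene. With gene bodies and 10 kb on each side, a region 4.25 kb from Bax enters as well. It was WT-specific, so WT-specific regions then number 8 and also stand at both kinds of gene. All 12 of these intervals include the share of all regions, which hold the regions of the 7 genes as well. With so few regions, not independent within a gene, the intervals cannot decide whether these genes differ from others. The comparisons share the WT Treg Bcl11b and WT Foxp3 sets, so their counts are not independent of each other.

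**Figure D4:**
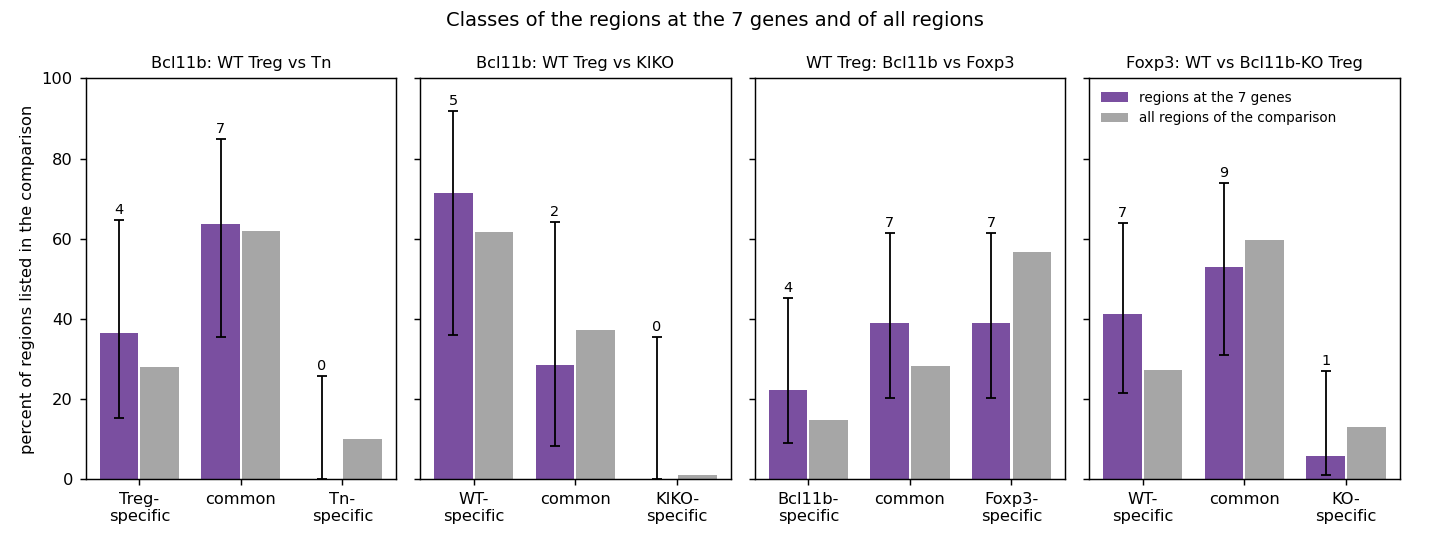
Share of each class in the 4 comparisons, for regions at the 7 genes (purple) and all regions of the comparison (grey). The y axis is percent of the regions listed in the comparison, error bars are Wilson 95% intervals of the 7 genes and the numbers above them are counts of regions. Every error bar includes the top of the grey bar beside it.

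Where the lists overlap in what they should contain, they did so incompletely at these genes. Of 15 regions listed for WT Treg Bcl11b in any comparison, 7 (46.7%) were in all 3 that include that set and 8 (53.3%) in a single one, beside 60.3% and 34.4% of 8589 such regions in all. The 8 were 2 regions of Bcl2, 1 of Bcl2l1 and 1 of Bak1, all common with Tn, and 2 each of Mcl1 and Bbc3, all common with Foxp3. None of the 8 was 198 bp wide, the commonest width among Treg-specific and Bcl11b-specific regions. WT Foxp3 was more uniform, with 14 of 16 regions (87.5%) in both comparisons that include it, beside 82.5% of 16228. The exceptions were 1 region each of Bcl2 and Bak1, both 276 bp wide, the commonest width among KO-specific regions. Regions of exactly the commonest width of a set made up 19 of the 25 (76.0%), beside 69.7% of all. Statements on Bbc3, on the outer Mcl1 regions, on Bak1 and on the 226-bp regions of Bcl2 and Bcl2l1 each rest on the comparison that lists them. For Bcl11b they also rest on the class common, whose rule was not given.

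Centres of 8 of the 25 (32.0%) lay within 1 kb of a start site of their gene, beside 33.6% of all regions for the start of any protein-coding gene. Inside a gene lay 20 (80.0%), beside 60.4%, and 14 of the 25 were at Bcl2 and Bcl2l1, the longest of the 7 genes. Widths ran from 198 to 440 bp with a median of 272 bp, and over all regions from 198 to 794 bp with a median of 276 bp.

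Other genes of the family were listed mostly for Foxp3. Of 18 further Bcl2 family genes, 11 had a region, beside 51% of all protein-coding genes, with 27 regions in all. Against Bcl11b, 16 of 20 were Foxp3-specific, 3 common and 1 Bcl11b-specific, where 56.8% of all regions were Foxp3-specific. The most regions were at Pmaip1 (6), which encodes the sensor Noxa, at Bcl2l15 and at Bid, which encodes a sensor cleaved by caspases (4 each). Bmf, another sensor gene, had 3 and Bcl2a1b, a guardian gene, 2, as did Bcl2l13 and Bcl2l14. Bcl2a1b has near-identical copies, so reads there may be placed at the wrong copy. For Foxp3 in WT against Bcl11b-KO Treg cells, 13 of 26 regions were common, 9 WT-specific and 4 KO-specific, 3 of the last at Pmaip1. Among all regions of that comparison these shares were 59.7%, 27.2% and 13.1%. No region was given to Bcl2l2, Bcl2l10, Bcl2a1a, Bcl2a1d, Bik, Bok or Hrk.

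Downstream and upstream partners in apoptosis carried 39 regions at 15 of 21 genes, where 51% of all protein-coding genes had a region. Cflar, whose product blocks caspase 8, had 8 and the death receptor gene Fas 5. All 7 Cflar regions in the comparison of the 2 factors were Foxp3-specific, as were both of Fas. Birc5, Fadd, Foxo3 and Tnfrsf10b had 3 regions each. Over the list, 14 of 32 regions were common to Bcl11b and Foxp3, 18 Foxp3-specific and none Bcl11b-specific. Foxp3 regions were common to WT and Bcl11b-KO cells in 25 of 37, WT-specific in 11 and KO-specific in 1, at Fas. Among all regions of that comparison these shares were 59.7%, 27.2% and 13.1%. No region was given to Apaf1, Casp9, Casp6, Xiap, Endog or Htra2. Over all regions, 14.9% were Bcl11b-specific, 28.3% common and 56.8% Foxp3-specific. The differences between the lists were not tested.

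**Figure D5:**
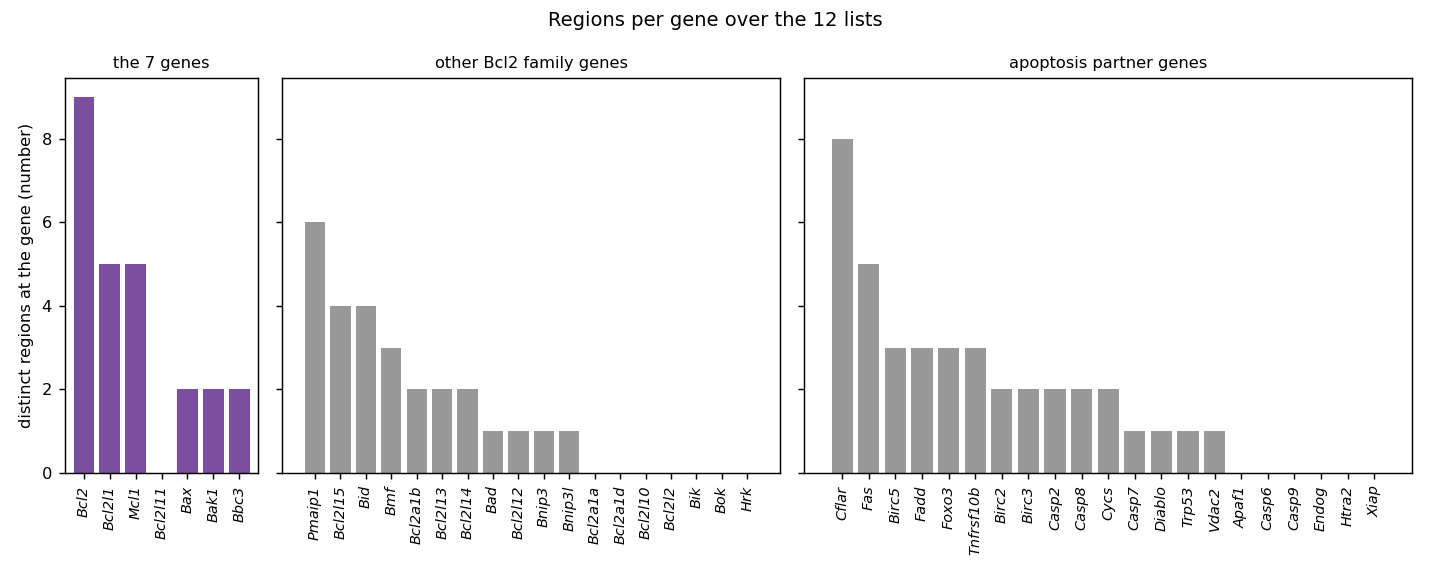
Number of distinct regions at each gene over the 12 lists, for the 7 genes (purple), 18 other Bcl2 family genes and 21 apoptosis partner genes (grey). Bcl2 with 9 regions and Cflar with 8 are the highest bars, and Bcl2l11 is at 0 because the region at its start site was given to Acoxl.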

How the data were processed

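ChIP-seq of Bcl11b and Foxp3 was analysed from 12 deposited lists of regions, with 3 columns (chromosome, start, end) and no header; starts were made 1-based. The authors deposited positions, with no signal or score. They used HISAT2 2.1.0, HOMER 4.10.1, SAMtools 1.3, deepTools, FastQC, cutadapt 1.12 and Trim Galore 0.4.2 on mm10, per the submitters' processing notes. What each tool did, the peak threshold, any pooling and the rule for common regions: not given in the sources used here. Repeated rows (127) were dropped. Regions in 2 classes of a comparison (25, none at the 7 genes) were left out of it. Lists were matched by identical position. The labels tie no list to 1 of the 3 WT Treg Bcl11b libraries.

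Gene positions were those of RefSeq on GRCm38.p6, with 21883 protein-coding genes (mitochondrial ones left out), and all 7 genes matched the promoter table. A region inside 2 genes counted for both (409 of 21848 regions). Exon and UTR annotation was not used here. Named by rule were the 7 genes and up to 6 genes with most regions of each further list (ties by symbol). Bcl2l14 and the genes with no region were named after their counts were seen. A gene of the partner list is not reported here. The members, lists and motifs were chosen with earlier results of these data known. Gene assignment matched a plain search in 600 of 600 simulated cases, and 350 of 350 planted motifs were found. The tools were matplotlib 3.10.9, pandas 2.3.3, scipy 1.17.1 and numpy 2.4.6, run in Python 3.11.15.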

Additional observations from a re-analysis of the deposited data

How the results depend on the processing

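Of 117 counts recomputed under 9 alternatives, 102 stayed within 1.5 times their value. A limit of 20 kb, competition by genes of every type, counting regions in both of 2 classes, merging centres within 500 bp and giving a region inside 2 genes to the gene with the closer end moved none by more. With genes of every type, 1 Mcl1 region went to a non-coding gene, and with the closer end 1 Bcl2l1 region went to Cox4i2. With gene bodies and 10 kb on each side, with the nearest gene end, and with regions on promoter windows added, KO-specific regions numbered 2 in place of 1, the second being that at the Bcl2l11 start site. By nearest gene end, regions common with KIKO numbered 1 in place of 2. No score allowed a stricter threshold, so regions wider than 276 bp stood in for it. They left 5 regions (1 each at Bcl2, Bcl2l1 and Mcl1, 2 at Bbc3). Of these, 1 was Treg-specific and 1 common with Tn, 2 WT-specific and 0 common with KIKO, 0 Bcl11b-specific, 4 common and 1 Foxp3-specific between the factors, and 2 WT-specific, 3 common and 0 KO-specific for Foxp3. Fewer regions enter by the construction of that alternative. The last 2 alternatives, on ties and promoter windows, were chosen after seeing the data. No paired analysis was possible because the lists carry no value per replicate, and for the same reason no replicate could be left out. Depth limits what the absence of a region can show.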

Other observations

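A further 53 regions lay within 100 kb of 1 of the 7 genes but nearer to another gene, 14 of them around Bbc3, 10 around Mcl1, 9 each around Bax and Bak1, 6 around Bcl2, 3 around Bcl2l1 and 2 around Bcl2l11. Given to Ggnbp1, which overlaps Bak1, chr17:27012075-27012499, 7.53 kb from Bak1 and 425 bp wide, was common in all 4 comparisons, a pattern that none of the 25 regions had. The region chr7:45471041-45471260, given to Dhdh and 4.25 kb from Bax, was Foxp3-specific and WT-specific against Bcl11b-KO. At Adamtsl4, chr3:95672466-95672741, 9.42 kb from Mcl1, was common to both factors and to WT and Bcl11b-KO cells. Of those listed against Tn, 6 of 20 were Treg-specific, 12 common and 2 Tn-specific, beside 28.0%, 62.0% and 10% of all regions. Against KIKO, 13 of 15 were WT-specific and 2 common, beside 61.6% and 37.2%. Between the factors, 7 of 43 were Bcl11b-specific, 15 common and 21 Foxp3-specific, beside 14.9%, 28.3% and 56.8%. For Foxp3 in WT against Bcl11b-KO cells, 9 of 44 were WT-specific, 30 common and 5 KO-specific, beside 27.2%, 59.7% and 13.1%.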
